A study of Homo sapiens with 16 samples.

Results

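The H3K27ac landscapes of 2 epithelial ovarian cancer (EOC) lines that resist platinum (cPt), A2780cis and CAOV4cis, were compared over the autosomes. Overlapping peaks of the 2 lines, with 1 bp in common or more, were joined into regions, which were then sorted into shared, A2780cis-specific and CAOV4cis-specific ones. This gave 33909 regions, against 58336 regions when all 8 peak lists of the series were merged. A2780 cells, of the endometrioid subtype, respond to cPt, and A2780cis cells were made resistant from them. CAOV4 is a high-grade serous line, and CAOV4cis was derived from it by treatment with increasing doses of cPt over a shorter period. Both resistant lines were kept in medium with cPt, which the sensitive lines did not receive, so that resistance and the presence of the drug cannot be told apart. Each line gave 1 H3K27ac library, made from mononucleosomes released by MNase with a *D. melanogaster* spike-in of 5%. H3K9ac libraries of A2780 and A2780cis, 1 for each line, and H3K27ac libraries of A2780 cells with 1 of 2 shRNAs against *MBD3* (shMBD3.26 and shMBD3.232) were used only for lookup.

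H3K27ac, the acetylation of lysine 27 of histone H3, marks active promoters and active enhancers, the regulatory elements that raise the transcription of genes at a distance. Promoters of widely used genes carry the mark in most cell types, whereas enhancers differ strongly between cell types and between tumor subtypes. Enhancers that lie close together can form wide acetylated clusters, often called super-enhancers, at genes that define a cell's identity. H3K9ac is a second acetylation of active promoters and enhancers. In resistant cells, the pattern of H3K27ac is read as a record of which regulatory elements are in use.

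The lists hold the start and end of each peak in hg19 (GRCh37) but no signal, so a wide peak is not known to be a strong one, and the number of reads under a peak cannot be read from them. With 1 library per line, no difference between lines has a replicate check, and the intervals given in parentheses are 95% Wilson intervals that cover counting error only. No list had a peak on chromosomes 20, 21 or 22. All lists also stopped before the end of each chromosome from 1 to 12, and on chromosome 1 their last peaks ended at 197.17 to 197.19 Mb. The comparison is therefore about the 19 autosomes with peaks, and about the listed parts of these. Peak boundaries fell on a grid of 200 bp and neighboring peaks of a list were at least 1000 bp apart.

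Some of the windows described below hold genes whose sequences help to place the findings. Of the 7 windows looked up, the one from *MIR29A* to *LINC-PINT* differed most between the resistant lines in the share covered by peaks. *MIR29A* encodes miR-29a, a microRNA known to repress collagen and other extracellular matrix transcripts. Its mature forms in RefSeq (GRCh38.p14) are shown with the seed, bases 2 to 8, in capitals:
hsa-miR-29a-3p: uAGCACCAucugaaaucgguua
hsa-miR-29a-5p: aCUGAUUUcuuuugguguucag

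The *FGF10* window was acetylated in A2780cis and without a peak in CAOV4cis, and the *RAD51B* window was acetylated in both. *FGF10* encodes a secreted fibroblast growth factor that signals from mesenchyme to epithelium, and *RAD51B* a protein of homologous recombination. For both genes, the stretch from 250 bases before to 50 bases after the first listed start is shown from RefSeq (GRCh38.p14), with each CpG in capitals. *FGF10* is read on the minus strand and *RAD51B* on the plus strand, from the first start listed:
FGF10: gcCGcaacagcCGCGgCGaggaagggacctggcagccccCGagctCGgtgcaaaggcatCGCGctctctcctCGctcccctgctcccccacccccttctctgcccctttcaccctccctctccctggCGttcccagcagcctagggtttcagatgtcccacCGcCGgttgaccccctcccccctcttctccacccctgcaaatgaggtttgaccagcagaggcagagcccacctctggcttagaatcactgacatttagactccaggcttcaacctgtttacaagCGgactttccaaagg
RAD51B: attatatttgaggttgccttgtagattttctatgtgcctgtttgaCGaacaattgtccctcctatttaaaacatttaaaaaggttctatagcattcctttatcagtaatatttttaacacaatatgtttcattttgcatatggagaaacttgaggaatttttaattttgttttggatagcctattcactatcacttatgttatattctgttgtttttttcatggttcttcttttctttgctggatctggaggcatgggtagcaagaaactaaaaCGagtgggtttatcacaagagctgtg

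The *FGF10* stretch held 13 CpG and a G+C share of 62.3%, and the *RAD51B* stretch held 2 CpG and 32.3%. The median over 35116 promoters of the same length was 14 CpG. At least 13 CpG were found in 51.7% of them and at least 2 in 89.0%. The sequences belong to another build than the peak lists and were not placed on the peaks. These counts thus describe the first listed start of each gene, not its other starts and not the acetylated stretches. Whether the first listed start is the main promoter of either gene was not checked. The contrast between the 2 genes can therefore depend on which start was listed first.

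The 2 resistant lines had 26.4% of their H3K27ac regions in common, and these common regions were wider than the specific ones. A2780cis had 20245 autosomal peaks that covered 91.5 Mb, with a median width of 2800 bp. CAOV4cis had 24660 peaks that covered 82.0 Mb, with a median width of 2200 bp. Of the 33909 regions, 8945 were shared, or 26.4% (25.9% to 26.9%). Another 10707 were A2780cis-specific, or 31.6% (31.1% to 32.1%), and 14257 were CAOV4cis-specific, or 42.0% (41.5% to 42.6%). The median width was 5800 bp in shared, 1800 bp in A2780cis-specific and 1400 bp in CAOV4cis-specific regions. Merging widens a shared region, and a wide peak has more bases in which to meet a partner. Regions over 2 kb made up 94.4% of the shared class, 44.9% of the A2780cis-specific class and 37.5% of the CAOV4cis-specific class.

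The excess of CAOV4cis-specific regions depended on which peaks were kept. With the wider 50% of each list it remained, with 6617 CAOV4cis-specific and 4749 A2780cis-specific regions. With peaks over 2 kb only, 6356 regions were A2780cis-specific and 6226 were CAOV4cis-specific. With lists of equal number, made of their widest peaks, the order turned, with 11065 A2780cis-specific and 10476 CAOV4cis-specific regions. Of the CAOV4cis-specific regions 1205 measured 200 bp, the narrowest width listed, and of the A2780cis-specific regions 664 did.

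Counted by peaks, 9538 of 20245 A2780cis peaks had a partner in CAOV4cis, or 47.1% (46.4% to 47.8%). Of the 24660 CAOV4cis peaks, 10403 had a partner in A2780cis, or 42.2% (41.6% to 42.8%). This order turned with the same number of widest peaks, to 45.3% and 48.3%, and with peaks over 2 kb, to 49.4% and 51.1%, but not with the wider 50% of each list, at 53.1% and 46.3%. Among peaks of up to 1 kb, 16.8% in A2780cis and 18.9% in CAOV4cis had a partner. The share rose with width in both lines to peaks of 10 to 20 kb, where it was 74.3% (71.7% to 76.6%) in A2780cis and 67.4% (64.3% to 70.4%) in CAOV4cis.

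In the share with a partner, the broadest peaks of A2780cis departed from this trend. In A2780cis the share with a partner was 59.9% (54.8% to 64.8%) among peaks of 20 to 50 kb and 39.0% (28.8% to 50.1%) among the 77 peaks over 50 kb. In CAOV4cis it was 69.8% (63.8% to 75.3%) among peaks of 20 to 50 kb and it held for 9 of the 12 peaks over 50 kb (46.8% to 91.1%). Of the 77 broadest A2780cis peaks, 30 met a CAOV4cis peak, and CAOV4cis peaks covered 11.1% of their length. The sensitive line A2780 had a partner at 66 of them and covered 59.9% of their length, and H3K9ac of A2780cis was present at all 77 and covered 82.2%. The parents showed part of the same pattern, with a partner in CAOV4 for 66.2% of A2780 peaks of 10 to 20 kb and 44.2% (30.4% to 58.9%) of the 43 A2780 peaks over 50 kb. By covered length, both resistant lines showed a fall at great width. CAOV4cis covered 37.5% of the length of A2780cis peaks of 10 to 20 kb and 11.1% over 50 kb. A2780cis covered 39.7% of the length of CAOV4cis peaks of 10 to 20 kb and 18.6% over 50 kb.

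**Figure D1:**
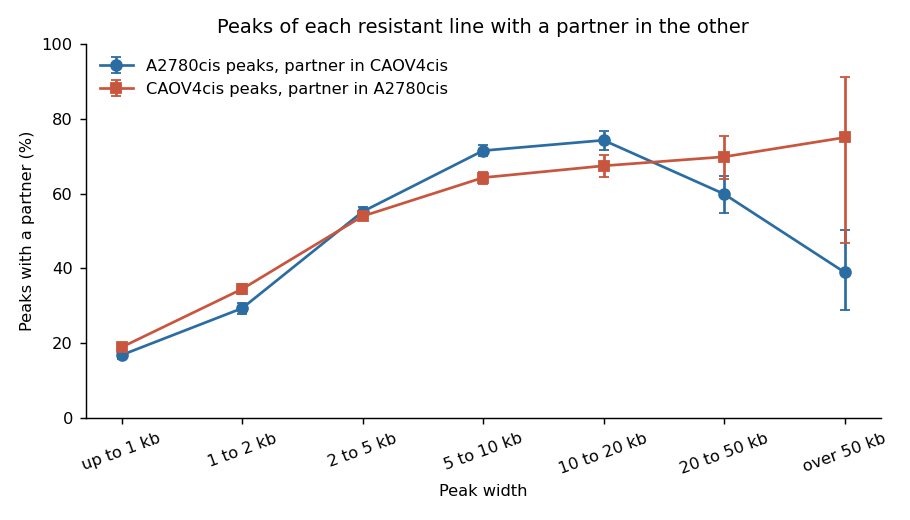
Share of peaks (%) with a partner in the other resistant line, on the vertical axis, by peak width, for A2780cis (circles) and CAOV4cis (squares). Bars are 95% Wilson intervals. The share falls to 39.0% in A2780cis peaks over 50 kb, where CAOV4cis has 12 peaks and a wide interval.

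Inside the shared regions, the lines acetylated overlapping but unequal stretches. In 7495 of the 8945 shared regions, or 83.8%, a single peak of each line met. The median length covered was 4400 bp in A2780cis and 3800 bp in CAOV4cis, with a median ratio of 1.18 (quartiles 0.731 and 2.0). A2780cis covered more in 57.3% of the regions and CAOV4cis in 39.7%. At least 4 times the length was covered in A2780cis at 835 regions and in CAOV4cis at 524. The part covered in both lines at once was a median of 50% of a shared region, and 32.5 Mb in all. This was 35.6% of the length covered in A2780cis and 39.7% of that in CAOV4cis.

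The shared regions with the most length covered in both lines were also covered in both parents. The first, on chromosome 17 from 46613001 to 46682800, had 68.8 kb covered in A2780cis and 61.6 kb in CAOV4cis, with 69.6 kb in A2780 and 57.6 kb in CAOV4. On chromosome 12, the region from 54359401 to 54433400 had 64.6 kb covered in A2780cis and 69.6 kb in CAOV4cis. The region on chromosome 1 from 154923601 to 154992200 had 67.2 kb in A2780cis and 59.0 kb in CAOV4cis. Each of these 3 regions had between 56.8 and 69.6 kb covered in each of the 4 lines. At a further region on chromosome 12, from 53830201 to 53905000, the resistant lines covered more than their own parents, with 72.0 kb in A2780cis against 57.6 kb in A2780 and 56.0 kb in CAOV4cis against 33.2 kb in CAOV4. The fifth, on chromosome 11 from 65229001 to 65288600, had 48.2 kb in A2780cis and 59.6 kb in CAOV4cis. A gene annotation of hg19 was not used here, so these regions are given by position and not by gene.

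The shared part was unevenly spread over the chromosomes. It was highest on chromosomes 19, 16 and 17, with 32.8% (30.9% to 34.9%), 31.1% (29.1% to 33.2%) and 30.1% (28.4% to 31.8%) of the regions. It was lowest on chromosomes 18, 8 and 13, with 18.1% (15.2% to 21.5%), 20.4% (18.6% to 22.5%) and 21.2% (18.1% to 24.7%). The specific classes varied more. A2780cis-specific regions made up 51.5% of the regions on chromosome 2 and 19.02% on chromosome 14, and CAOV4cis-specific regions made up 54.4% on chromosome 14 and 18.4% on chromosome 19. On 13 of 19 autosomes CAOV4cis-specific regions were the more numerous.

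**Figure D2:**
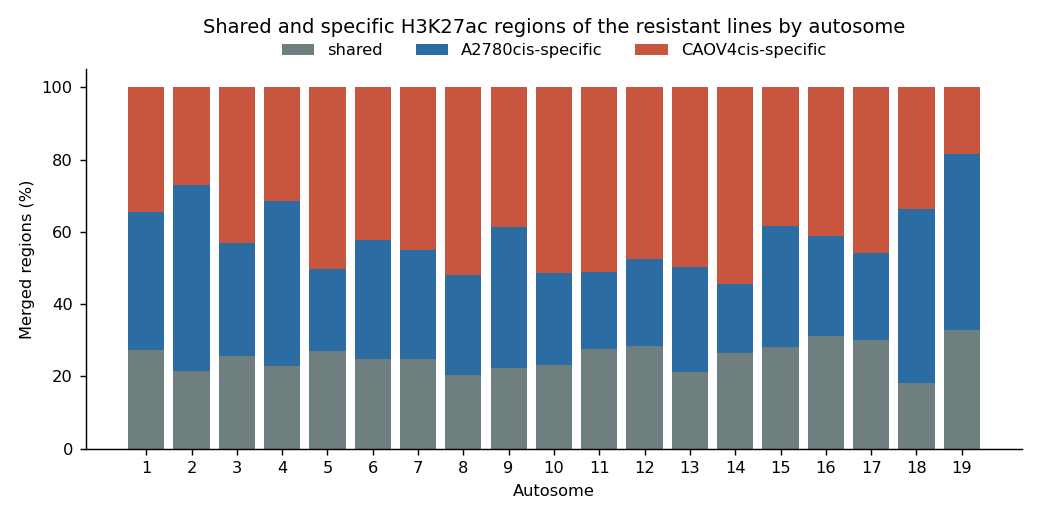
Share of merged regions (%) that were shared, A2780cis-specific or CAOV4cis-specific on each of the 19 autosomes with peaks. The shared part lies between 18.1% on chromosome 18 and 32.8% on chromosome 19, while the specific parts trade places between chromosomes 14 and 19.

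The length covered per chromosome showed the same imbalance, and most of it was already present between the parents. A2780cis covered 2.78 times the length of CAOV4cis on chromosome 2, with 5.08 Mb against 1.83 Mb, 2.53 times on chromosome 18 and 2.42 times on chromosome 19. It covered 0.661 times the length on chromosome 14, with 3.67 Mb against 5.55 Mb. Between the parents, A2780 covered 2.46 times the length of CAOV4 on chromosome 2, 2.39 times on chromosome 18, 2.19 times on chromosome 19 and 0.801 times on chromosome 14. Over 19 autosomes, the log2 ratio of the resistant lines and that of the parents had a Pearson r of 0.918 and a Spearman rho of 0.940, and the same sign on 16 autosomes. This is a description over chromosomes, which are not replicates, and the number of copies of each chromosome in these lines was not measured here. On chromosome 13 the ratio fell from 2.15 between the parents to 1.15 between the resistant lines. A2780 covered 2.30 Mb there and A2780cis 1.23 Mb, while CAOV4 and CAOV4cis both covered 1.07 Mb.

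**Figure D3:**
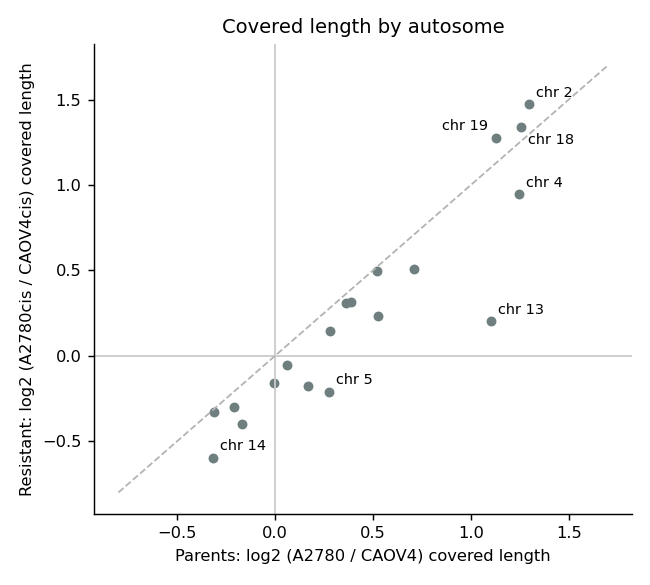
Log2 ratio of the length covered by H3K27ac peaks in A2780cis over CAOV4cis (vertical) against A2780 over CAOV4 (horizontal), 1 point for each of 19 autosomes, with the dashed line at equal values. Chromosomes 2, 18 and 19 lie high on both axes, and chromosome 13 lies far below the line, at 0.20 against 1.10.

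The imbalance was also present in smaller segments. Among 204 segments of 10 Mb with at least 200 kb covered by the resistant lines together, the log2 ratio of the resistant lines and that of the parents had a Pearson r of 0.861. A2780cis covered over 4 times the length of CAOV4cis in 20 segments, and in 19 of these A2780 covered over 2 times the length of CAOV4. CAOV4cis covered over 4 times the length of A2780cis in 4 segments, and in 3 of these CAOV4 covered over 2 times the length of A2780. The limit for the parents was looser, and the share of all 204 segments beyond it was not counted, so these counts have no background value. These segments share the 4 libraries and are not independent.

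Whether resistance brought the 2 lines closer was asked by setting the resistant pair beside the parental pair and both mixed pairs. The resistant lines shared 23.1% of the length covered by either, and the parents shared 22.2%, a difference of 0.916 percentage points. The mixed pair of A2780cis and CAOV4, however, shared 23.1% as well, and the pair of A2780 and CAOV4cis shared 21.97%. The pairs with A2780cis were thus higher than the pairs with A2780, whichever CAOV4 line they were set against. Lines of the same origin shared far more, with 44.5% for A2780 and A2780cis and 45.0% for CAOV4 and CAOV4cis.

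By regions, the resistant lines shared 26.4% (25.9% to 26.9%) and the parents 24.5% (24.1% to 24.9%), but A2780cis and CAOV4 shared 27.6% (27.1% to 28.1%). With the 20245 widest peaks of each list, a setting that changes the number and the widths of the peaks at once, the resistant lines shared 28.5% (28.0% to 29.0%) of the regions and the parents 28.8% (28.3% to 29.4%). The order of the resistant and the parental pair thus turned, with overlapping intervals, and A2780cis and CAOV4 shared 29.0%. The covered length kept its order there, with 23.2% for the resistant lines and 22.4% for the parents. By chromosome, the resistant lines shared more of the covered length than the parents on 13 autosomes and less on 6. The difference ran from 4.41 percentage points on chromosome 12 to -2.96 on chromosome 19. None of these values has a replicate check.

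**Figure D4:**
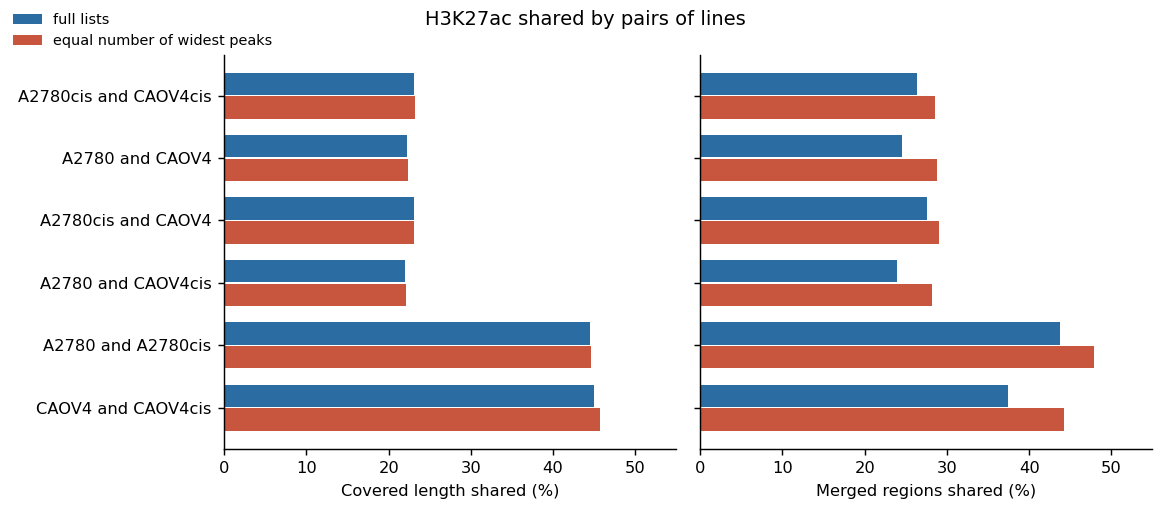
Share (%) of the covered length (left) and of the merged regions (right) that is common to 2 lines, for the 6 pairs of H3K27ac lists, with full lists and with lists cut to the number of peaks of the shortest, by width. Pairs across origins lie between 21.97% and 23.1% of the length with full lists, and pairs of the same origin at 44.5% and 45.0%.

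When all 4 lists were merged, 6856 of 48131 regions had a peak in every line, or 14.2%. Few regions were held by a single pair across origins. In full lists, 287 regions (0.60%) had a peak in both resistant lines and in neither parent. There were 428 (0.89%) with a peak in both parents and in neither resistant line. Another 518 (1.08%) had a peak in A2780 and CAOV4cis only, and 256 (0.53%) in A2780cis and CAOV4 only. With the same number of widest peaks, these were 362, 272, 267 and 334 of 38068 regions, or 0.95%, 0.71%, 0.70% and 0.88%. The number of regions of the resistant pair therefore lay below those of the parental pair in full lists and above them in lists of equal number.

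Peaks that a resistant line had without a partner in its parent were set against both lines of the other origin. A2780cis had 5620 such peaks, of which 16.6% (15.6% to 17.6%) met a peak of CAOV4cis and 15.3% (14.4% to 16.2%) met one of CAOV4. CAOV4cis had 10999, of which 21.3% (20.6% to 22.1%) met a peak of A2780cis and 23.2% (22.4% to 23.97%) met one of A2780. Of the A2780cis peaks, 399 met a peak of CAOV4cis and not of CAOV4, and 326 the reverse. Of the CAOV4cis peaks, 564 met a peak of A2780cis and not of A2780, and 766 the reverse. Peaks that had a partner in their own parent met the other resistant line far more often, and their values had the same order. Of 14625 such A2780cis peaks, 58.9% met CAOV4cis and 58.7% met CAOV4. Of 13661 such CAOV4cis peaks, 59.0% met A2780cis and 61.4% met A2780. Over all widths, the longer of the 2 lists looked up was met more often in each case. The lists held 24660 peaks in CAOV4cis against 22826 in CAOV4, and 27932 in A2780 against 20245 in A2780cis. Over 10 kb, A2780cis peaks with a partner in A2780 met CAOV4cis at 76.6% and CAOV4 at 77.1%. CAOV4cis peaks with a partner in CAOV4 met A2780cis at 68.1% and A2780 at 71.7%. With the same number of widest peaks, all CAOV4cis peaks met A2780cis at 48.3% and A2780 at 47.2%. All A2780cis peaks met CAOV4cis at 45.3% and CAOV4 at 45.7%. The role of list length was not tested.

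The parental lists, which played no part in the classing, separated the classes. Of the 8945 shared regions, 77.8% (76.9% to 78.7%) had a peak in both parents, 14.3% in A2780 only, 4.66% in CAOV4 only and 3.21% in neither. Of the A2780cis-specific regions, 56.2% (55.3% to 57.1%) had a peak in A2780 and 15.9% in CAOV4. Of the CAOV4cis-specific regions, 39.3% (38.5% to 40.1%) had a peak in CAOV4 and 11.5% in A2780. The order of the 2 lines in the share with a peak in their own parent turned with the same number of widest peaks, to 47.4% in A2780cis-specific and 48.9% in CAOV4cis-specific regions, and with peaks over 2 kb the shares were 59.3% and 57.9%. Neither parent had a peak at 40.7% of the A2780cis-specific and 55.3% of the CAOV4cis-specific regions, with median widths of 1200 and 800 bp.

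Among regions over 10 kb, the lines differed. Of 377 CAOV4cis-specific regions of this size, 375 had a peak in CAOV4, or 99.5% (98.1% to 99.9%). Of 508 A2780cis-specific regions, 347 had a peak in A2780, or 68.3% (64.1% to 72.2%), and 156 had none in either parent. Of the CAOV4cis-specific regions, 2 had none in either parent. Wide specific regions without a peak in either parent were thus listed mostly in A2780cis, which has the longer history of treatment, but the subtype, the length of treatment and the library cannot be told apart.

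H3K9ac gave a readout in other libraries of the A2780 lines. It was not analysed here for CAOV4 or CAOV4cis. An H3K9ac peak of A2780cis was present at 77.3% (76.5% to 78.2%) of the shared, 35.0% (34.1% to 35.9%) of the A2780cis-specific and 2.12% (1.89% to 2.37%) of the CAOV4cis-specific regions. Among regions over 10 kb, these shares were 91.7%, 93.5% and 4.51%. Wide A2780cis-specific regions thus carried a second acetylation about as often as wide shared regions, whereas among regions of up to 2 kb the shares were 17.3% and 30.1%. A shared region joins peaks of both lines, so its A2780cis peak can be narrower than the region. The classes were therefore not matched by the width of the A2780cis peak. In A2780, H3K9ac was present at 75.7%, 32.0% and 6.78% of the 3 classes.

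H3K9ac also separated the wide A2780cis-specific regions by their history. At the 161 regions over 10 kb without an H3K27ac peak in A2780, H3K9ac was listed in A2780cis at 146, or 90.7% (85.2% to 94.3%), and in A2780 at 9, or 5.59% (2.97% to 10.3%). At the 347 with an H3K27ac peak in A2780, it was listed in A2780cis at 94.8% and in A2780 at 88.2%. The high share held for wide regions only. Of all 4689 A2780cis-specific regions without an A2780 peak, 17.1% had H3K9ac in A2780cis, and of those over 2 to 10 kb, 28.4% did. At the 62 shared regions over 10 kb without an H3K27ac peak in A2780, H3K9ac was listed in A2780cis at 45.2% (33.4% to 57.5%) and in A2780 at 21.0%.

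**Figure D5:**
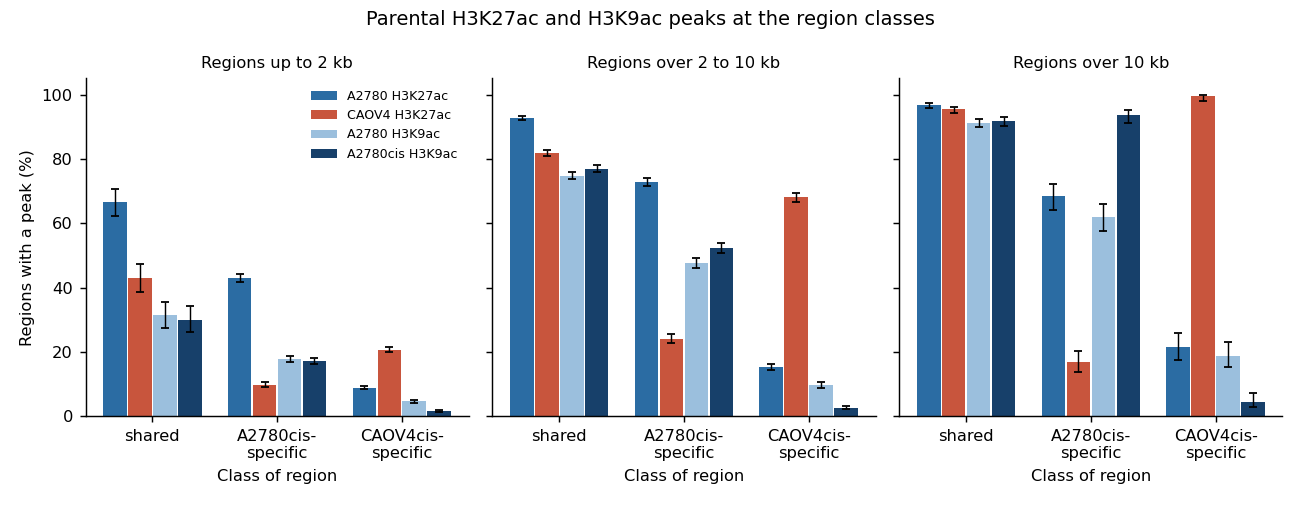
Share of shared, A2780cis-specific and CAOV4cis-specific regions (%) with an H3K27ac peak in A2780 or CAOV4, or an H3K9ac peak in A2780 or A2780cis, in 3 classes of region width. Bars are 95% Wilson intervals. Over 10 kb, CAOV4 had a peak at 99.5% of the CAOV4cis-specific regions and A2780 at 68.3% of the A2780cis-specific ones.

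To find specific clusters, peaks of a line at most 10 kb apart were stitched into stretches, and stretches without a peak of the other resistant line were ranked by covered length. A2780cis had 5927 such stretches, of which 180 had over 20 kb covered, and 50 of these 180 had no peak in A2780. CAOV4cis had 6742, of which 124 had over 20 kb covered, and 0 of these 124 lacked a peak in CAOV4. The A2780cis stretches over 20 kb were most numerous on chromosome 3, with 26, and on chromosome 6, with 19. These chromosomes held 615 and 522 A2780cis-specific regions, against 1260 on chromosome 1, which had 18 such stretches. The CAOV4cis stretches over 20 kb were most numerous on chromosome 8, with 13, and chromosome 10, with 12. These chromosomes held 849 and 1074 CAOV4cis-specific regions, against 1283 on chromosome 17, which had 8 such stretches. Chromosome 19 had 0 such stretches and 389 CAOV4cis-specific regions.

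The first A2780cis-specific stretch by covered length spanned 58291401 to 58690000 of chromosome 5. It had 362.2 kb covered in A2780cis, 261.6 kb in A2780 and 0 kb in CAOV4, with 0 kb in CAOV4cis by the choice of stretches. The stretch on chromosome 8 from 83005801 to 83188200 had 159.2 kb in A2780cis and 134.8 kb in A2780. The stretch on chromosome 17 from 59194601 to 59368800 had 159.0 kb in A2780cis and 162.0 kb in A2780. These 3 stretches thus belonged to both A2780 lines. The fourth, on chromosome 1 from 102282401 to 102462600, was wider in the resistant line, with 158.4 kb against 89.8 kb. The fifth was absent from the A2780 list. It lay on chromosome 3 from 117224401 to 117390200 and had 151.6 kb in A2780cis, with 97.0 kb also covered by H3K9ac in A2780cis and 0 kb by H3K9ac in A2780.

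Further A2780cis-specific stretches without a peak in A2780 had the same form. The next in size spanned 41368601 to 41525400 of chromosome 11, where H3K27ac covered 148.2 kb and H3K9ac 123.4 kb. The stretch on chromosome 2 from 53222201 to 53383200 had 139.0 kb and 75.4 kb, respectively. Both were at 0 kb in CAOV4 and in the cells with either shRNA against *MBD3*. Their 0 kb in A2780 and CAOV4cis was set by the way they were chosen. They are named by covered length within the stretches without a parental peak, a group formed after the values were seen.

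The CAOV4cis-specific stretches with the most covered length all had large parental counterparts. The first, on chromosome 8 from 102427401 to 102661800, had 163.0 kb covered in CAOV4cis and 132.8 kb in CAOV4. On chromosome 10, the stretch from 9050601 to 9288000 had 157.8 kb in CAOV4cis and 138.8 kb in CAOV4. The stretch on chromosome 8 from 116785201 to 116956200 had 153.4 kb and 134.2 kb. In these 3 stretches the resistant line covered somewhat more than its parent. On chromosome 5, from 35127801 to 35322000, CAOV4cis covered 140.4 kb and CAOV4 149.2 kb. On chromosome 14, from 94762001 to 94895800, they covered 125.4 kb and 116.6 kb. None of the 5 had a peak in any A2780 list of either mark, which for H3K27ac of A2780cis was set by the choice of stretches. Among CAOV4cis-specific stretches without a peak in CAOV4, the most covered, on chromosome 7 from 43838801 to 43857800, had 14.8 kb.

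The study drew windows at several loci for the A2780 lines, and these were looked up in CAOV4 and CAOV4cis. The windows were chosen by the study for their acetylation in the A2780 lines, so the values in those lines are not independent evidence. At *JAK1*, a tyrosine kinase that relays cytokine signals to STAT factors, peaks covered 40.5% of the window in A2780cis and 11.9% in CAOV4cis, against 1.28% in A2780 and 6.39% in CAOV4. Both resistant lines covered more than their parents there. Of the length covered in CAOV4cis, 71.4% was also covered in A2780cis, but this came to 8.0 kb. The widest peak measured 25.6 kb in A2780cis and 3.6 kb in CAOV4cis.

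At *FGF10*, 8 peaks covered 62.2% of the window in A2780cis, and 0 peaks were listed in A2780, CAOV4 or CAOV4cis. At *LINC00871*, a long non-coding RNA gene, 1 peak covered 48.4% of the window in A2780cis, 0.367% was covered in A2780, and CAOV4 and CAOV4cis had 0 peaks. The acetylation of these windows in A2780cis was thus not listed in CAOV4cis. The *SLC66A1L* window was covered to 82.6% in A2780 and had 0 peaks in A2780cis, CAOV4 and CAOV4cis.

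At *RAD51B*, peaks covered much of the window in both resistant lines but in 1 of the parents only. Peaks covered 72.9% of the window in A2780cis and 41.5% in CAOV4cis, against 3.03% in A2780 and 47.7% in CAOV4. The window was thus almost free of peaks in A2780, while in the CAOV4 lines it was covered before and after the development of resistance. The stretches covered in A2780cis and in CAOV4cis overlapped over 111.8 kb, which was 83.2% of the CAOV4cis length and 47.4% of the A2780cis length. Since A2780cis peaks covered 72.9% of the whole window, a large overlap would arise wherever the CAOV4cis peaks lay in it.

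The windows that the study drew as common to A2780 and A2780cis differed in the CAOV4 lines. From *TUT1*, which encodes a terminal uridylyltransferase, to *GANAB*, a glucosidase subunit of the endoplasmic reticulum, peaks covered 94.3% in A2780cis, 89.5% in CAOV4cis, 77.1% in A2780 and 77.1% in CAOV4. From *MIR29A* to *LINC-PINT*, whose miRNA sequences are shown above, peaks covered 87.5% in A2780cis and 77.3% in A2780, but 5.20% in CAOV4cis and 1.06% in CAOV4. The former window was thus acetylated in all 4 lines, and the latter mainly in those of A2780 origin.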

How the data were processed

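H3K27ac ChIP-seq of A2780, A2780cis, CAOV4 and CAOV4cis cells was used, with H3K9ac of A2780 and A2780cis and H3K27ac of A2780 cells with shMBD3.26 or shMBD3.232 for lookup. According to the methods and the submitters' processing notes, the authors aligned reads with Bowtie2 to hg19 (GRCh37), applied a quantile normalization and ran MACS2 to call peaks, with no versions given. The deposited files are 1 peak list per sample, with chromosome, start and end. The deposited score column was 0 throughout and was not used. The authors' steps that set peaks on a 200 bp grid are not given in the sources used here, so widths are those of the lists. The 8 input samples were not used here.

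Autosomal peaks sharing at least 1 bp were merged. Shared covered length was divided by the length covered by either list. Stretches joined peaks at most 10 kb apart. The regions named are the 5 specific stretches of each resistant line and the 5 shared regions with the most covered length, and the 3 autosomes with the highest and the lowest shared part. Also named are the most covered specific stretches among those without a peak in their own parent. The windows are those drawn in the study. Regions and windows were chosen with earlier results of these data known. Marker genes were not placed on the peaks, since no annotation of hg19 was used here. No p-value was computed. Alternatives were other overlaps, peak widths, list lengths, chromosomes and stitching distances. The merging was tested on 20 simulated list pairs and recovered all 20. Python 3.11.15, numpy 2.4.6, SciPy 1.17.1 and matplotlib 3.10.9 were used.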

Additional observations from a re-analysis of the deposited data

Results flagged for a closer look

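The lines of the 2 origins moved in opposite directions from parent to resistant line in the 3 measures flagged here, but not in every measure. None of these differences was tested, because there was 1 library per line. The length covered by H3K27ac peaks changed by -5.19 Mb from A2780 to A2780cis and by 5.54 Mb from CAOV4 to CAOV4cis. The number of autosomal peaks changed by -7687 from A2780 to A2780cis and by 1834 from CAOV4 to CAOV4cis. In the *RAD51B* window, the covered share changed by 69.9 percentage points from A2780 to A2780cis and by -6.12 from CAOV4 to CAOV4cis. The study chose that window for its acetylation in the A2780 lines, so its change there is not independent evidence. Its number of peaks rose in both origins, from 5 to 23 and from 25 to 33. Peaks over 10 kb also rose in both, from 1504 to 1662 and from 1113 to 1178, while peaks over 2 kb and over 50 kb moved in opposite directions.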

How the results depend on the processing

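With an overlap of 50% of the shorter peak, 45.4% of A2780cis and 40.4% of CAOV4cis peaks had a partner, the resistant lines shared 1.69 percentage points more regions than the parents, and 55.2% of A2780cis-specific and 36.6% of CAOV4cis-specific regions had a peak in their parent. With peaks up to 5 kb apart joined, there were 6621 A2780cis-specific and 7976 CAOV4cis-specific regions, partner shares were 57.7% and 53.7%, the region difference was 1.21 points, 79.2% of shared regions had a peak in both parents, 63.5% and 48.0% of specific regions had one in their parent, and H3K9ac was at 79.0%, 42.9% and 3.17% of the 3 classes. With peaks over 2 kb, the shared, A2780cis-specific and CAOV4cis-specific classes held 5907, 6356 and 6226 regions, partner shares were 49.4% and 51.1%, the difference in covered length was 1.17 points and in regions 1.99 points, the parental shares were 73.8%, 59.3% and 57.9%, and H3K9ac was at 44.8% of A2780cis-specific regions. With the wider 50% of each list, the classes held 5141, 4749 and 6617 regions, partner shares were 53.1% and 46.3%, the differences were 0.839 and 1.745 points, the parental shares were 76.0%, 65.7% and 57.9%, and H3K9ac was at 74.8%, 46.6% and 3.60% of the classes. With the same number of widest peaks, partner shares were 45.3% and 48.3%, the difference in covered length was 0.768 points and that in regions turned to -0.348, the parental shares were 76.3%, 47.4% and 48.9%, with the order of the specific classes turned, and H3K9ac was at 2.42% of CAOV4cis-specific regions. The cause of these turns was not tested. With chromosome X added, the differences were 0.817 and 1.71 points.

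The difference in covered length uses no overlap rule and has no value for the first 2 alternatives. With stitching at 5 and 25 kb, specific stretches over 20 kb numbered 198 and 137 in A2780cis and 128 and 103 in CAOV4cis, and 0 of the latter lacked a peak in CAOV4. No paired analysis was possible because each line gave 1 library and no test was made. Without read depths, the precision of single peaks could not be given.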

Other observations

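Specific regions of both lines lay at like distances from the shared ones. The median distance to the nearest shared region was 36.0 kb for A2780cis-specific and 35.8 kb for CAOV4cis-specific regions, and 25.1% and 26.0% lay within 10 kb. Of the A2780cis-specific regions 28.7% lay over 100 kb away, with a median width of 2200 bp, against 1800 bp within 10 kb. Of the CAOV4cis-specific regions 28.5% lay over 100 kb away, with a median width of 1400 bp, against 1600 bp within 10 kb.

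Seen from the other mark, 55.5% of the 15058 H3K9ac peaks of A2780cis met a shared region, 28.4% an A2780cis-specific region and 2.01% a CAOV4cis-specific region. In A2780 cells with shMBD3.26, an H3K27ac peak was present at 89.6% of the shared, 48.0% of the A2780cis-specific and 7.86% of the CAOV4cis-specific regions. With shMBD3.232 these shares were 87.7%, 42.9% and 7.13%. In A2780 cells without an shRNA they were 92.1%, 56.2% and 11.5%. The lists held 23270 autosomal peaks with shMBD3.26, 18936 with shMBD3.232 and 27932 without an shRNA. An effect of the shRNAs was not tested.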
